A study of Mus musculus with 6 samples.

Results

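The genes described here encode the proteasome, its assembly factors and activators, and the transcription factor Nfe2l1, in interscapular brown adipose tissue of cold-exposed and control mice. They were the protein-coding genes of the GENCODE M21 annotation whose symbol begins with Psma, Psmb, Psmc, Psmd, Psme, Psmf or Psmg, together with Nfe2l1 and Pomp. The rule gave 52 genes among 21730 genes with at least 1 read, and 48 of the 52 had enough reads to be tested. Each of the 6 libraries came from the interscapular brown fat, the heat-producing depot between the shoulder blades, of 1 wild-type male C57BL/6N mouse, aged 20 weeks by the labels' account of the treatment. The 3 cold mice, numbered 4, 11 and 15, were housed alone at 4 °C for 24 h. The 3 ctrl mice, numbered 2, 9 and 14, were kept at 22 to 24 °C, and the labels do not say whether they were housed alone, so single housing and cold cannot be told apart. Poly(A) RNA was sequenced as nanopore direct cDNA, a method that reads long cDNA molecules without amplification.

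The proteasome degrades proteins tagged with ubiquitin. Its core particle is a barrel of alpha and beta rings with the cutting sites of Psmb5, Psmb6 and Psmb7 inside, and a cap with an ATPase ring recognises, unfolds and threads substrates into it. Nfe2l1 is made in the endoplasmic reticulum membrane, extracted from it and normally destroyed by the proteasome. When proteasome activity falls short it escapes destruction, is cut and enters the nucleus, where it raises transcription of proteasome genes. This route is known in brown fat for its part in adaptation to cold. Interferon signals replace the cutting subunits with Psmb8, Psmb9 and Psmb10, the immunoproteasome, and raise the activator of Psme1 and Psme2, which together favour peptides for antigen presentation.

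The libraries held 1657985 to 2082203 reads in cold mice and 1829442 to 2238056 reads in ctrl mice, so that 3 reads stood for 1.34 to 1.81 CPM, reads scaled to a common library size. The labels' extraction text names another fat depot, whereas the tissue field names interscapular brown fat. Ucp1, the uncoupling protein that defines brown fat, stood at 13875, 13665 and 13889 CPM in cold mice 4, 11 and 15 and at 11228, 9700 and 11069 CPM in ctrl mice 2, 9 and 14. Mitochondrially encoded reads made up 27.6% to 29% in cold mice and 29.7% to 32.5% in ctrl mice. Skeletal muscle markers varied widely within both groups: the 12 marker genes summed to 295, 1454 and 3643 CPM in cold mice 4, 11 and 15, against 94.9, 414 and 663 CPM in ctrl mice 2, 9 and 14. None of the 12 was called. In bulk tissue such as this, fewer cells of a type and less RNA per cell cannot be told apart.

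Most proteasome genes did not pass the test between cold and ctrl mice, and the few that passed the test fell into different roles by direction. Among the 48 tested genes, 3 were higher in the cold, namely the alpha-ring gene Psma6, the catalytic gene Psmb7 and the cap gene Psmd12. Another 3 were lower, namely the activator genes Psme1 and Psme2 and the immunoproteasome gene Psmb9. A gene was called at an adjusted p below 0.05 in edgeR's quasi-likelihood test over all 8684 tested genes, of which 20.03% were called, 10.01% higher and 10.02% lower in cold mice. The share among proteasome genes, 6 of 48, was no higher than that background. Before adjustment 10 of the 48 had an edgeR p below 0.05, the other 4 being Psmb8, Psme4, Psmc4 and Psmd6, beside 2726 of all 8684 tested genes. DESeq2 called 3 of the proteasome genes, Psma6, Psmb7 and Psme2, beside 7.61% of all genes. The log2 fold change, cold over ctrl, was above 0 in 33 of the 48 and below 0 in 15, and its median was 0.10, against 0.00 over all tested genes. The 3 cold and 3 ctrl mice did not overlap for 15 of the 48 genes, 9 of them higher and 6 lower in the cold, beside 35.1% of all tested genes (17.3% higher and 17.8% lower). The reads of all 52 genes together came to 5019, 4821 and 4827 CPM in cold mice 4, 11 and 15 and to 4573, 4709 and 4634 CPM in ctrl mice 2, 9 and 14. Every cold mouse lay above every ctrl mouse in this sum, at a ratio of 1.05 between the group means.

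**Figure D1:**
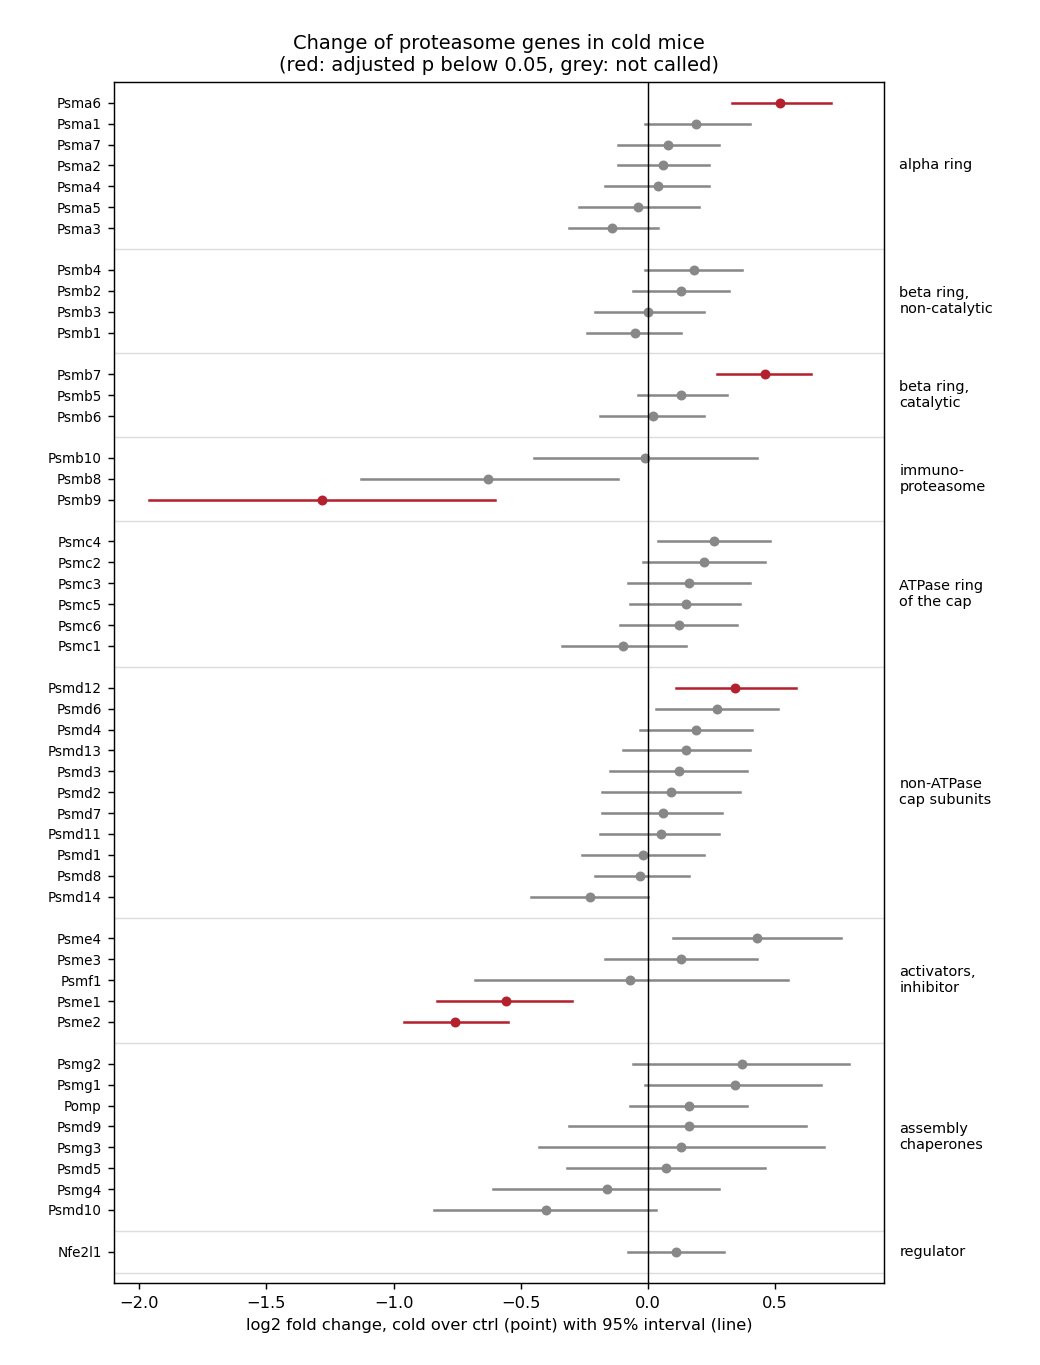
Log2 fold change, cold over ctrl, of the 48 tested proteasome genes (x axis) with 95% intervals, one gene per line, grouped by role. Red marks the 6 called genes: Psma6, Psmb7 and Psmd12 lie right of 0, and Psmb9, Psme1 and Psme2 lie left of it.

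Nfe2l1, on chr11, did not pass the test. It stood at 179, 198 and 196 CPM in cold mice 4, 11 and 15, and at 188, 168 and 175 CPM in ctrl mice 2, 9 and 14. The groups overlapped, because cold mouse 4 lay below ctrl mouse 2. The log2 fold change was 0.11 ± 0.09 (SE), with a 95% interval of -0.08 to 0.30 and an edgeR adjusted p of 0.453, so the interval covers changes from a small decrease to a 1.23-fold increase. Over the processing alternatives the log2 fold change ranged from 0.04 to 0.22 and never passed the threshold. These counts measure the mRNA. Destruction and cleavage of the protein, steps at which Nfe2l1 is controlled, leave no trace in them.

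The reads of Nfe2l1 were spread over 5 tested transcripts, all annotated as protein-coding. Nfe2l1-211 held 32.9% of the gene's reads, with 59.2, 68.2 and 70.2 CPM in cold mice 4, 11 and 15 and 61.5, 61.2 and 54.2 CPM in ctrl mice 2, 9 and 14. Nfe2l1-212, with 15.5% of the reads, had the largest fold change of the 5: 28.1, 34.9 and 38.4 CPM in cold mice against 26.8, 18.5 and 29.2 CPM in ctrl mice, in the same order of mice. Its groups overlapped, and its log2 fold change of 0.43 ± 0.18 (SE) had an edgeR adjusted p of 0.106 over all tested transcripts. The other 3 had log2 fold changes between -0.04 and 0.09. Long reads that stop before the 5′ end of an mRNA cannot always be assigned to 1 of these transcripts, and how the authors' counting treated them is not given in the sources used here.

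**Figure D2:**
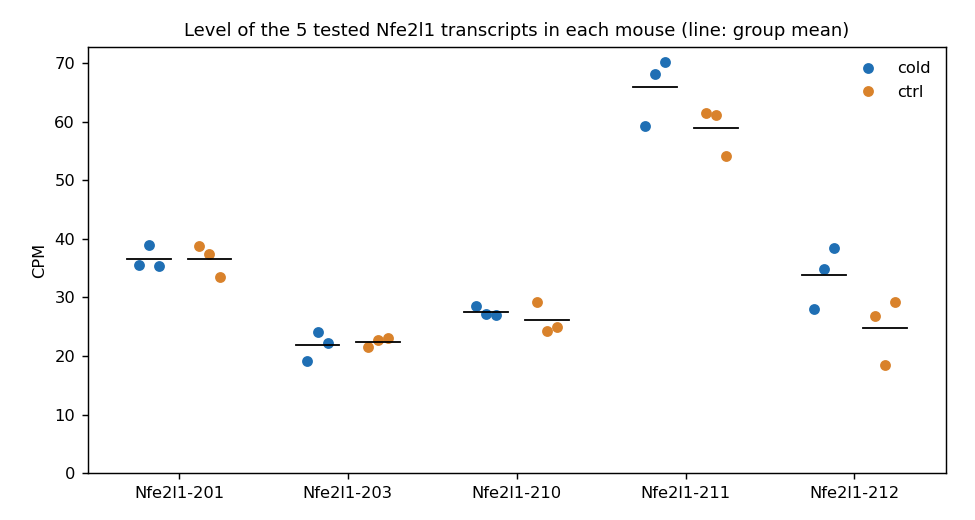
Level in CPM (y axis) of the 5 tested Nfe2l1 transcripts (x axis) in each mouse, cold mice left of ctrl mice, with black lines at group means. Points of the groups overlap for all 5 transcripts, and Nfe2l1-211 is the most abundant.

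The genes whose level ran most closely with Nfe2l1 over the 6 libraries were Ube4a, Os9, Ccl25, Loxl1 and Atp2b1, with Pearson correlations of log2 CPM of 0.996, 0.994, 0.982, 0.980 and 0.977. They were the highest of all tested genes outside the proteasome set, and are given as a description. With only 6 libraries and so many genes searched, no correlation was tested. Ccl25 rests on 35 reads in all cold mice and 29 in all ctrl mice. None of the 5 was itself called; Ube4a, a ubiquitin chain elongation factor, had 17.4, 22.5 and 21.5 CPM in cold mice against 20.3, 14.8 and 16.3 CPM in ctrl mice.

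Nfe2l1 is known to bind antioxidant response elements in proteasome promoters. The RefSeq promoter table, of build GRCm38.p6, held 44 of the 52 genes, and the 250 bases before each annotated start were searched on both strands for the letters TGACNNNGC, the core of that element. The letters were found for 5 of the 44 genes (11.4%), namely Psmb5, Psmb6, Psmc6, Psmd12 and Psmd9, beside 11.5% of the 27025 genes in the table. Of these 5 only Psmd12 was called. Letters of the interferon-stimulated response element, GAAA followed by any 2 bases and again GAAA, were found for 3 of the 44 genes (6.82%), beside 3.46% of all genes, and those of the gamma-activated sequence, TTCNNNGAA, for Psmb8 and Psmg1 (4.55%), beside 8.13%. The 3 patterns were searched separately and no match in the printed stretches overlapped another pattern. The absence of a match says only that these letters are not in the window. The printed stretches are written 5′ to 3′ on the gene's strand and are cut before the start of any transcript of the gene with at least 20 reads. They are shown to set the matches in Psmb5, Psmb6 and Psmd12 beside the promoters of Psma6 and Psme2, 2 called genes without a match, and capitals mark the match.
Psmb5 promoter, antioxidant response letters, chr14:54618023-54618245, minus strand: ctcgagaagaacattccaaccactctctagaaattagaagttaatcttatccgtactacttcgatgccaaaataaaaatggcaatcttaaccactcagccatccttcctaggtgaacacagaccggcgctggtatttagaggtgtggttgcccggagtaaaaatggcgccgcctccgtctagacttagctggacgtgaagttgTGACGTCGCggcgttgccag
Psmb6 promoter, antioxidant response letters, chr11:70525107-70525356, plus strand: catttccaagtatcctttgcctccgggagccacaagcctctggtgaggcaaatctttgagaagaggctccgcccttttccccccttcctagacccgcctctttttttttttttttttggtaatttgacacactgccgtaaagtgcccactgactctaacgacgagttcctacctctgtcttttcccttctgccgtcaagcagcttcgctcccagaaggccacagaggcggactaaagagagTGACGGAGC
Psmd12 promoter, antioxidant response letters, chr11:107479278-107479483, plus strand: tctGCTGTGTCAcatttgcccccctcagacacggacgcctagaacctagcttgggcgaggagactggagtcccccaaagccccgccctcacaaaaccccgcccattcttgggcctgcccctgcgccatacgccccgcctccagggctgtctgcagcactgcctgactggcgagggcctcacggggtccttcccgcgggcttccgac
Psma6 promoter, no match, chr12:55398575-55398774, plus strand: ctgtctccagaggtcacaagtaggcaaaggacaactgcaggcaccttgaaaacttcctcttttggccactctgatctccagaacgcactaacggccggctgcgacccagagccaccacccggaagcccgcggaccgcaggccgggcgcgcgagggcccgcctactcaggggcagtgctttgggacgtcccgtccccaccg
Psme2 promoter, no match, chr14:55591102-55591351, minus strand: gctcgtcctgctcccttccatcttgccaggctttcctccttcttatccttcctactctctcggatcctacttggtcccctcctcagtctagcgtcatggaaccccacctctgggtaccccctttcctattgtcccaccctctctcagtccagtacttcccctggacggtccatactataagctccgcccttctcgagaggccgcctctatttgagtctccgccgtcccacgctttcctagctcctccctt

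In the alpha ring, which forms the gate of the core particle, Psma6 was higher in cold mice. It stood at 281, 254 and 246 CPM in cold mice 4, 11 and 15, against 179, 161 and 204 CPM in ctrl mice 2, 9 and 14. All cold mice lay above all ctrl mice. The fold change was 1.44, or 0.52 ± 0.09 (SE) on the log2 scale, with an edgeR adjusted p of 0.000126, and it was called in all 16 processing alternatives. One transcript, Psma6-201, carried 98.5% of the reads and rose by the same log2 fold change of 0.52 (edgeR adjusted p = 5.86e-05 over transcripts). The other 6 tested alpha genes, Psma1 to Psma5 and Psma7, had log2 fold changes of -0.14 to 0.19 and none was called. Psma8, the testis form of an alpha subunit, had no read in any library, where 3 reads would be 1.34 to 1.81 CPM.

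The beta ring holds the 3 cutting subunits, and of these Psmb7, which carries the trypsin-like site, was higher in cold mice. It stood at 223, 218 and 220 CPM in cold mice 4, 11 and 15 and at 145, 164 and 172 CPM in ctrl mice 2, 9 and 14. The groups did not overlap, at 220 ± 2.24 CPM in cold mice and 160 ± 14.1 CPM in ctrl mice (mean ± SD, n = 3 each). The fold change was 1.37 (log2 0.46 ± 0.09, SE), with an edgeR adjusted p of 0.000446, and the call held in all 16 alternatives. Psmb7-201 carried 99.3% of the reads. The 3′ end of Psmb7 overlaps that of Nek6, a kinase gene on the opposite strand, by 255 nt of transcript. Nek6 was also higher, at 28, 28.1 and 27.4 CPM in cold mice against 16.8, 17.4 and 18.6 CPM in ctrl mice. Since the use of strand in the counting is not given, a misplaced read cannot be told apart. Nek6 had 264 reads in all and Psmb7 had 2215. The part of misplaced reads in the Psmb7 result was not tested.

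The other cutting subunits were not called. Psmb5, the chymotrypsin-like subunit, stood at 287, 254 and 279 CPM in cold mice 4, 11 and 15 and at 244, 261 and 243 CPM in ctrl mice 2, 9 and 14. Cold mouse 11 lay below ctrl mouse 9, and the log2 fold change was 0.13 (95% interval -0.04 to 0.31, edgeR adjusted p = 0.304). Psmb6, the caspase-like subunit, stood at 163, 133 and 159 CPM in cold mice and at 141, 162 and 147 CPM in ctrl mice, with a log2 fold change of 0.02 (95% interval -0.19 to 0.22, edgeR adjusted p = 0.938). Among the 4 beta genes without a cutting site, Psmb1 to Psmb4, log2 fold changes ran from -0.05 to 0.18 and none was called. Psmb4 and Psmb2, with the largest changes, had edgeR adjusted p-values of 0.201 and 0.362, although their cold and ctrl mice did not overlap. Psmb4 read 205, 178 and 180 CPM in cold mice against 168, 155 and 175 CPM in ctrl mice. The highest mean levels of all the proteasome genes were those of Psmb5 and Psma3. Psmb5 averaged 274 CPM in cold and 250 CPM in ctrl mice, and Psma3 272 CPM and 300 CPM. Psma6 averaged 260 CPM in cold and 181 CPM in ctrl mice, and Nfe2l1 191 CPM and 177 CPM.

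**Figure D3:**
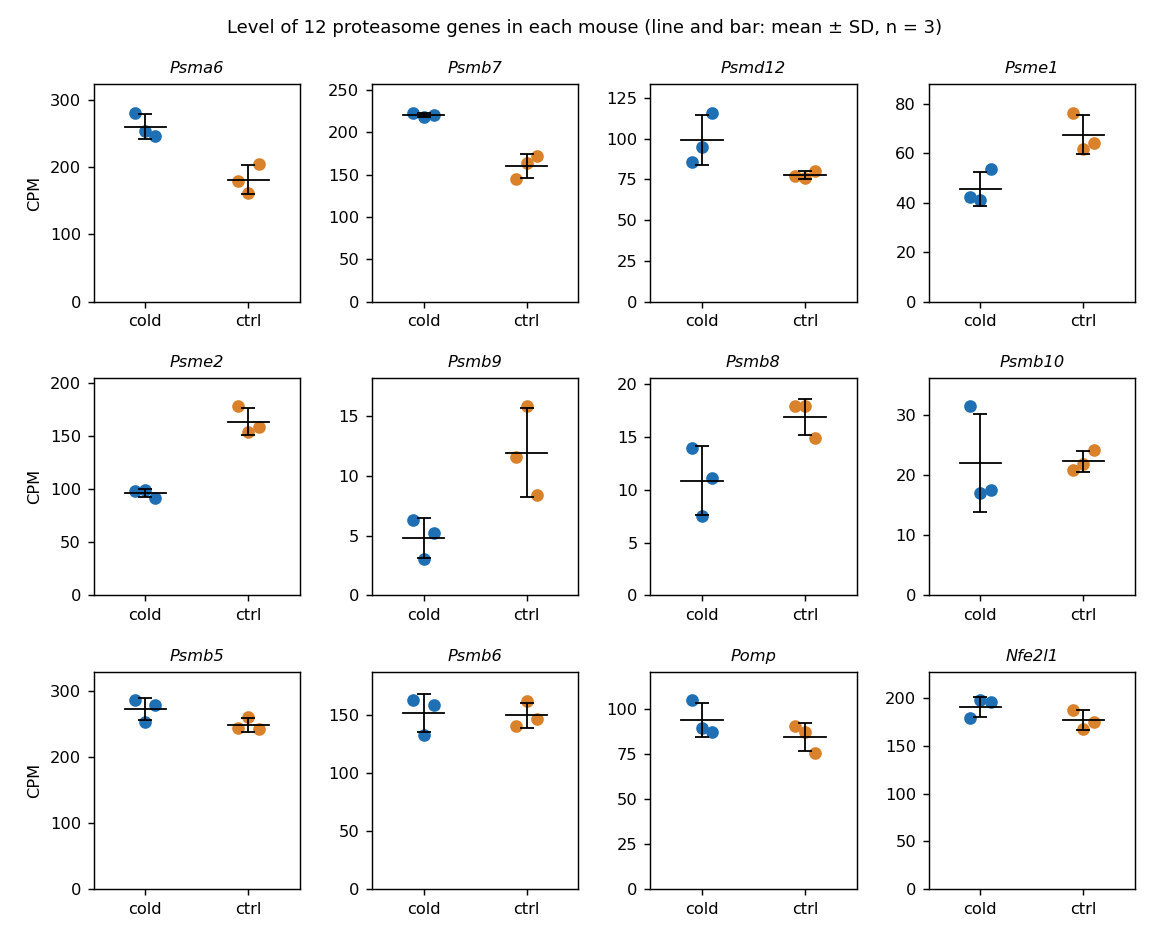
Level in CPM (y axes, from 0) of 12 proteasome genes in each mouse, cold left of ctrl, with mean ± SD (n = 3 each). For Psma6, Psmb7, Psmd12, Psme1, Psme2, Psmb9 and Psmb8 no cold point overlaps a ctrl point; for Psmb10, Psmb5, Psmb6, Pomp and Nfe2l1 they do.

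In the cap that feeds the core, 1 of 17 genes was called, beside 20.03% of all tested genes. The cold and ctrl mice did not overlap for 6 of the 17 (35.3%), beside 35.1% of all tested genes. None of the 6 genes of the ATPase ring, the motor that unfolds substrates, was called, and their log2 fold changes ran from -0.10 to 0.26. The largest were those of Psmc4 and Psmc2, neither of whose groups overlapped. Psmc4 had 105, 111 and 112 CPM in cold mice 4, 11 and 15 and 78.1, 98.5 and 96.3 CPM in ctrl mice 2, 9 and 14 (log2 fold change 0.26, edgeR adjusted p = 0.0895). Psmc2 had 82.1, 78.1 and 75.1 CPM in cold mice and 63.1, 74.5 and 64.7 CPM in ctrl mice (log2 fold change 0.22, edgeR adjusted p = 0.197). Summed, the ATPase ring stood at 552.2, 522 and 539.8 CPM in cold mice against 460.6, 507.3 and 491.4 CPM in ctrl mice, without overlap. The non-ATPase cap genes summed to 890.9, 949.3 and 956.7 CPM in cold mice against 880.1, 901.7 and 868.2 CPM in ctrl mice. These groups overlapped, and neither sum was tested.

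Of the 11 non-ATPase cap subunits, Psmd12, a scaffold subunit of the lid, was called. It stood at 86, 95.2 and 116 CPM in cold mice 4, 11 and 15, against 77, 76 and 80.5 CPM in ctrl mice 2, 9 and 14. All cold mice were above all ctrl mice, with cold mouse 15 highest. The log2 fold change was 0.34 ± 0.12 (SE; edgeR adjusted p = 0.0345). The call was lost in 9 of 16 alternatives, among them leaving out cold mouse 15 (log2 fold change 0.22, edgeR adjusted p = 0.24), leaving out any 1 ctrl mouse (0.0676 to 0.093), and the skeletal muscle covariate (log2 fold change 0.19, edgeR adjusted p = 0.415). Cold mouse 15 was also the library with the most skeletal muscle reads; the part of muscle in the Psmd12 result was not tested beyond that covariate. The other 10 genes, from Psmd1 to Psmd14, had log2 fold changes of -0.23 to 0.27. Psmd14, the deubiquitinase of the lid, marked the lower end at 63.3, 73.1 and 68.7 CPM in cold mice and 76.4, 84.2 and 79.6 CPM in ctrl mice, without overlap (edgeR adjusted p = 0.17). Psmd14 was picked out after its values were seen.

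The assembly chaperones, which build the rings and the cap, gave no called gene among 8, beside 20.03% called of all tested genes. Pomp, the factor that guides the pairing of nascent core rings, stood at 105, 89.7 and 87.3 CPM in cold mice 4, 11 and 15 and at 90.8, 87.3 and 75.8 CPM in ctrl mice 2, 9 and 14. The groups overlapped, and the log2 fold change was 0.16 (95% interval -0.07 to 0.39, edgeR adjusted p = 0.372). The largest changes in this role were a log2 fold change of -0.40 for Psmd10, a chaperone of the ATPase ring, and of 0.37 for Psmg2, a chaperone of the alpha ring. Psmd10 had 16.9, 17.5 and 11.6 CPM in cold mice and 19.7, 20.9 and 20.9 CPM in ctrl mice, without overlap (edgeR adjusted p = 0.197). Psmg2 had 18.4, 23 and 25.6 CPM in cold mice and 21.4, 15.8 and 14.9 CPM in ctrl mice, with overlap (edgeR adjusted p = 0.242). Psmg1, its partner in the alpha-ring chaperone, passed only when cold mouse 11 was left out (edgeR adjusted p = 0.0163, against 0.173 with all mice).

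Of all proteasome genes, Psme2, lower in cold mice, had the smallest adjusted p. With Psme1 it encodes a proteasome activator, a ring that opens the core without ATP or ubiquitin. Psme2 stood at 98.1, 99.7 and 92 CPM in cold mice 4, 11 and 15, against 178, 154 and 159 CPM in ctrl mice 2, 9 and 14. Every cold mouse lay far below every ctrl mouse. The gene was 1.69-fold lower (log2 fold change -0.76 ± 0.10, SE; edgeR adjusted p = 1.24e-06) and was called in all 16 alternatives. Its main transcript, Psme2-208, with 80.7% of the reads, stood at 79.4, 80.5 and 75 CPM in cold mice against 146, 129 and 138 CPM in ctrl mice. Psme2b, 99.4% identical to Psme2 over 794 nt, had 17 reads in cold and 30 in ctrl mice, beside 560 and 951 for Psme2, and was too low to test.

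Psme1 stood at 42.5, 41.1 and 53.6 CPM in cold mice 4, 11 and 15, against 76.4, 61.7 and 64.2 CPM in ctrl mice 2, 9 and 14. The groups did not overlap, and the gene was 1.48-fold lower (log2 fold change -0.56 ± 0.13, SE; edgeR adjusted p = 0.00203). Of its reads 83.9% were counted on transcripts not annotated as protein-coding, chiefly Psme1-206, a retained-intron transcript with 73.8% of the reads, which was itself lower (log2 fold change -0.51, edgeR adjusted p = 0.0156 over transcripts). With protein-coding transcripts alone, the log2 fold change of Psme1 was -0.76 and the edgeR adjusted p 0.0658, and with DESeq2 the adjusted p was 0.0794. Psme1 and Psme2 lie on chr14, on opposite strands, 5.91 kb apart. Together they held 140.6, 140.8 and 145.6 CPM in cold mice against 254.6, 215.4 and 223.3 CPM in ctrl mice.

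The other activators and the inhibitor did not pass the test. Psme4, an activator chosen here after its values were seen, had 34.3, 48.6 and 40.2 CPM in cold mice 4, 11 and 15 and 35.3, 26.5 and 29.8 CPM in ctrl mice 2, 9 and 14. Cold mouse 4 lay below ctrl mouse 2, and the log2 fold change of 0.43 ± 0.16 (SE) had an edgeR adjusted p of 0.0555. The p passed the threshold without cold mouse 4 (0.0314) or without ctrl mouse 2 (0.0385), again in edgeR. Psme3, the nuclear activator, had a log2 fold change of 0.13, and Psmf1, the inhibitor, one of -0.07 with a wide interval of -0.68 to 0.55.

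The immunoproteasome genes were scarce in both groups, and Psmb9, the interferon-induced counterpart of Psmb6, was called lower in cold mice. It stood at 6.28, 3.01 and 5.24 CPM in cold mice 4, 11 and 15, against 11.6, 15.8 and 8.38 CPM in ctrl mice 2, 9 and 14. The groups did not overlap, but the levels rest on 28 reads in all cold mice and 69 in all ctrl mice. The gene was 2.43-fold lower (log2 fold change -1.28 ± 0.33, SE; edgeR adjusted p = 0.00555). The call was lost without ctrl mouse 9 (edgeR adjusted p = 0.0581), with the muscle covariate (edgeR adjusted p = 0.0606) and with DESeq2 (adjusted p = 0.126). Reads at the 212 nt that Psmb9 shares with Tap1 on the opposite strand cannot be told apart without knowledge of the strand setting; Tap1 had 16 reads in cold and 28 in ctrl mice.

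Psmb8, the counterpart of Psmb5, stood at 14, 7.51 and 11.1 CPM in cold mice 4, 11 and 15, against 17.9, 17.9 and 14.9 CPM in ctrl mice 2, 9 and 14. The groups did not overlap, yet the log2 fold change of -0.63 ± 0.25 (SE) had an edgeR adjusted p of 0.072. It passed without cold mouse 4 (edgeR adjusted p = 0.037) and on flow cell 2 alone (edgeR adjusted p = 0.048). Psmb10, the counterpart of Psmb7, stood at 31.4, 17 and 17.5 CPM in cold mice and at 20.8, 21.9 and 24.2 CPM in ctrl mice, with cold mouse 4 highest and the other cold mice lowest. Its log2 fold change was -0.01 with an interval of -0.45 to 0.43 (edgeR adjusted p = 0.976). Of the reads of Psmb8 60.9%, and of those of Psmb10 63.8%, were counted on transcripts not annotated as protein-coding. Psmb11, the thymus form, had 1 read, in ctrl mouse 2.

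Set against its own counterpart in the same library, each immunoproteasome gene held a minor share of the pair's reads. Psmb9 made up 3.7%, 2.21% and 3.19% of Psmb9 and Psmb6 reads in cold mice 4, 11 and 15, and 7.58%, 8.88% and 5.41% in ctrl mice 2, 9 and 14. Psmb8 made up 4.65%, 2.87% and 3.82% of Psmb8 and Psmb5 reads in cold mice, and 6.84%, 6.4% and 5.77% in ctrl mice. Neither pair overlapped between the groups, and with 3 mice against 3 the smallest two-sided p of an exact permutation test is 0.1. Psmb10 made up 12.4%, 7.23% and 7.37% of Psmb10 and Psmb7 reads in cold mice, and 12.6%, 11.8% and 12.3% in ctrl mice, with cold mouse 4 inside the ctrl range. The shares are of reads, not of length-scaled levels, and Psmb7 itself was higher in cold mice.

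**Figure D4:**
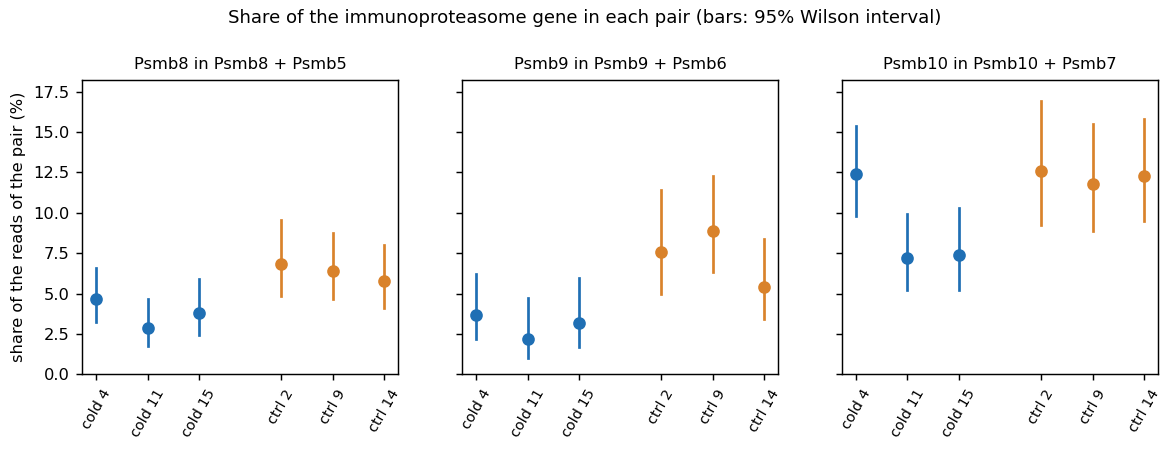
Share of each immunoproteasome gene in the reads of its pair (y axis, %), for each cold mouse (blue) and ctrl mouse (orange), with 95% Wilson intervals, which cover counting error only. Cold mice lie below ctrl mice for Psmb8 and Psmb9; for Psmb10, cold mouse 4 at 12.4% lies among the ctrl mice.

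Markers of immune cells were measured beside these genes. The 10 lymphocyte markers had 5, 2 and 5 reads in all in cold mice 4, 11 and 15, against 7, 9 and 14 reads in ctrl mice 2, 9 and 14, and none was abundant enough to test. Among them Cd3g, Cd4 and Cd79b had no read in any cold mouse. The 10 macrophage markers summed to 96.6, 106 and 133 CPM in cold mice and 96, 94.4 and 67.5 CPM in ctrl mice, and none of the 5 tested was called. Of 5 tested fibroblast markers 3 were called lower in cold mice, beside 10.02% lower of all tested genes. Dcn, another of the 5, went the other way (log2 fold change 0.35) and was not called. All 6 summed to 212, 231 and 273 CPM in cold mice and 265, 304 and 257 CPM in ctrl mice. Among 7 tested endothelial markers 1 was called, higher in cold mice, beside 10.01% higher of all tested genes. Tek and Tie1, also among the 7, went the other way (log2 fold changes -0.66 and -0.42), and neither was called. The part of these cells in the lower Psmb9, Psme1 and Psme2 was not tested.

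Genes that work with the proteasome were counted in lists drawn from textbook knowledge, but chosen with earlier results of these data known. Of 9 tested genes of interferon-inducible antigen processing, the pathway to which the immunoproteasome supplies peptides, 5 were lower and none higher in cold mice, beside 10.02% lower and 10.01% higher of all tested genes, with a median log2 fold change of -0.54. The most reduced were Tapbp, which loads peptides on class I molecules, at -0.95 (edgeR adjusted p = 1.57e-06), Tap2, a chain of the peptide transporter, at -0.83 (edgeR adjusted p = 0.00366), B2m, the invariant class I chain, at -0.56 (edgeR adjusted p = 0.02), and Cd74, the class II invariant chain, at -0.55 (edgeR adjusted p = 0.00466). Tapbp stood at 31.9, 36.6 and 34.9 CPM in cold mice 4, 11 and 15, against 68.9, 65.3 and 66.1 CPM in ctrl mice 2, 9 and 14, and was called in all 16 alternatives. Tap2 and Cd74 were called in 13 of 16 and B2m in 12. The fifth, the class I gene H2-K1, was called in 7 of 16, and it has close relatives with which it may share reads. Irf1, a transcription factor of interferon signalling, had a log2 fold change of -0.54 and was not called. Psmb9, Tap1, Psmb8 and Tap2 lie together within 34.3 kb on chr17.

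Of 11 genes for the extraction, deglycosylation and cleavage of Nfe2l1, 1 was called higher and 1 lower in cold mice, beside 10.01% higher and 10.02% lower of all tested genes. Ngly1, the enzyme that removes its sugars, rose, with 52.2, 51.6 and 40.8 CPM in cold mice 4, 11 and 15 against 31.8, 31.1 and 34.4 CPM in ctrl mice 2, 9 and 14 (log2 fold change 0.57, edgeR adjusted p = 0.00451). Its call held in 14 of 16 alternatives. Derl1, a component of the channel for extraction from the endoplasmic reticulum, fell, with 142, 154 and 127 CPM in cold mice against 190, 220 and 191 CPM in ctrl mice (log2 fold change -0.51, edgeR adjusted p = 0.000282). Ddi2, the protease that cuts Nfe2l1, had a log2 fold change of 0.07 and was not called. The median log2 fold change of the 11 genes was 0.07. None of the 6 tested related factors and partners was called; Mafg, a small Maf partner, and Bach1, a repressor at the same elements, had the largest log2 fold changes, 0.42 and 0.37, with edgeR adjusted p-values of 0.212 and 0.515.

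Rad23b and Ubqln1, shuttles that carry tagged proteins to the proteasome, were called higher in cold mice, with log2 fold changes of 0.42 (edgeR adjusted p = 0.0103) and 0.40 (edgeR adjusted p = 0.0263), but only 10 of 16 alternatives called Rad23b and 9 of 16 called Ubqln1, whose groups overlapped. Of 13 tested subunits and partners with other names, only Akirin1, the paralog of the nuclear import adaptor Akirin2, was called, against 20.03% of all tested genes, at a log2 fold change of 0.56 (edgeR adjusted p = 0.000688). Akirin2 itself was not called, with a log2 fold change of 0.01.

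At the level of transcripts, 81 of 229 proteasome transcripts with a read were tested and 4 were called, beside 16.9% of all tested transcripts. They were Psma6-201 and Psmb7-201, both higher, and Psme2-208 and Psme1-206, both lower. The share of a gene's reads held by each transcript was tested in 19 proteasome genes, and edgeR's diffSpliceDGE called none of them, beside 0.195% of all 2568 genes tested for it. The lowest unadjusted p among the 19 was 0.16, so 0 were under 0.05. Over all 52 genes, 10.9% of reads were counted on transcripts not annotated as protein-coding, and in 5 genes, Psme1, Psmc5, Psmb10, Psmb8 and Psma3, such transcripts held most of the reads.

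The 4 genes without a test were Psma8, Psmb11, Psme2b and Psmc3ip. Psmc3ip, whose symbol begins like those of the ATPase ring but which is a meiotic recombination factor, had 17 reads in cold and 20 in ctrl mice. Near-identical stretches, of at least 200 nt at 95% identity or more, were found in another gene with a read for 13 of the 52 genes. Adding the reads of same-strand copies to their proteasome gene left the same 6 genes called. Of these, only Psme2 had a same-strand copy with a read, Psme2b with 47 reads, so this is no check on the others. The opposite-strand overlaps of Psmb7 with Nek6 and of Psmb9 with Tap1 were not added.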

How the data were processed

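Poly(A) RNA of 6 mouse libraries, 3 cold and 3 ctrl, was measured. The deposited tables hold whole-number read counts per transcript, 1 table for each of 2 flow cells per mouse, without normalization. Reads were mapped with minimap2 on GRCm38, per the submitters' processing notes; how reads were counted, including ambiguous reads, strand and filters, is not given in the sources used here. Of 59543 transcripts, 59371 matched GENCODE M21; the 172 others held 0.0836% of reads and were left out. Counts were summed over flow cells and transcripts of a gene, so n is mice; whether litters or cages were shared is not stated. Same-group libraries were not identical.

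Genes were tested in R 4.3.3 with edgeR 4.0.16 (TMM, filterByExpr, glmQLFit with robust estimation, glmQLFTest), all 6 libraries, no covariate, Benjamini-Hochberg adjustment over 8684 genes, called below 0.05. Transcripts were tested likewise over 11699, and usage with diffSpliceDGE over 2568 genes. Values in CPM are TMM-scaled. Intervals are 95%, fold change errors are SE, and intervals of read shares are Wilson intervals for counting error only. DESeq2 1.42.0, RLE factors, other filters, single flow cells, each mouse left out, protein-coding transcripts alone, added copies and a skeletal muscle covariate were the alternatives. Sequence copies were found with minimap2 2.31, and promoters came from RefSeq (GRCm38.p6). Python 3.11.15, pandas 2.3.3, numpy 2.4.6, scipy 1.17.1 and matplotlib 3.10.9 prepared tables and figures. The test code was tested on simulated data.

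The proteasome genes and all gene lists were chosen with earlier results of these data known. Values were given in full for Nfe2l1, Pomp, the 6 catalytic genes, up to 4 called genes of each other role or list by size of change, or the 2 largest where none was called, and the 5 genes most like Nfe2l1; others are said to be picked after their values were seen or serve as examples of a role. Some genes of the lists are not reported here.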

Additional observations from a re-analysis of the deposited data

How the results depend on the processing

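Psma6, Psmb7 and Psme2 were called in the same direction in all 16 alternatives, and no called gene changed sign in any. Of 764 values, 1 for each of 48 genes and each alternative it was tested in, 14 lost their call (9 of Psmd12, 3 of Psmb9 and 2 of Psme1), 5 gained one, and 49 were sign changes of genes not called. All tested genes gave 1739 calls, against 889 on flow cell 2 alone, which has fewer reads, and 820 with DESeq2, where the cause was not tested. DESeq2 left 1 proteasome gene lower in cold mice, Psme2, instead of 3, and kept Psma6 and Psmb7 higher; its background was 7.61%. Leaving out each mouse in turn gave 1376 to 1486 calls over all genes, 2 to 4 proteasome genes higher and 2 to 4 lower, 3 to 5 transcripts, and 0 genes with changed usage. The skeletal muscle covariate gave 1200 calls, 2 proteasome genes higher and 2 lower. Leaving out cold mouse 15 and ctrl mouse 2 together, an alternative chosen after seeing the data because these libraries had the most and the fewest muscle reads, gave 1167 calls, 2 higher and 3 lower. No paired analysis was possible because cold and ctrl mice share no number in the labels. Depth limits Psmb9 most, with 28 reads in cold and 69 in ctrl mice; on single flow cells it was too low to test.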
